A study of Mus musculus with 34 samples.

Results

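The comparison set the livers of 4 vehicle-treated mice with a liver knockout of Ppara (LKO) against the livers of 4 vehicle-treated mice of the liver wild-type group (LWT). These 8 arrays were chosen by their genotype and treatment labels, out of 34 arrays in the series, and each array held RNA from 1 mouse. All mice were C57Bl/6J males of 14 weeks, given gum arabic at 3% in water by gavage each day for 10 days and killed at zeitgeber time 14, that is 14 h after the start of the light phase. The deleted part of Ppara, the driver of the recombinase and any allele the LWT mice carry are not given in the sources used here. Beside this pair stand vehicle-treated whole-body Ppara knockouts (KO, 3 mice) and wild-type mice (WT, 4), and LKO and LWT mice (5 each) given fenofibrate, an activator of PPARA, at 100 mg per kg per day.

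PPARA is a nuclear receptor that binds fatty acids and their derivatives and acts on DNA as a dimer with a retinoid X receptor. In liver it is known for driving genes of fatty acid uptake, of peroxisomal and mitochondrial beta-oxidation, of microsomal omega-oxidation and of ketone body synthesis. Its best-known secreted target is FGF21, a hormone that acts on adipose tissue and brain.

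Levels are log2 fluorescence intensities of 1 probe per gene relative to the 75th percentile of the same array, so they compare mice for a gene, not genes with each other. Between 53.1% and 58.7% of the 55681 probes were well above background on each of the 8 arrays, no probe was saturated, and replicates correlated across probes at 0.979 to 0.989. In all, 16071 genes were tested with limma, and a gene was called at a Benjamini-Hochberg adjusted p under 0.05. Differences are LKO minus LWT, as log2 ± SE, with n = 4 and 4, and folds are 2 to the power of their size.

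More genes were lower than higher in the LKO livers. The test called 685 genes lower (4.26%) and 292 higher (1.82%), 977 in all (6.08% of those tested). Among 9553 probes without a gene name 1.91% were lower and 0.597% higher. At least 2-fold changes made up 232 of the falls and 97 of the rises, and the median called gene fell 1.64-fold or rose 1.70-fold. In 630 of the 685 falls and 262 of the 292 rises every LKO array lay beyond every LWT array, which was also the case for 7.94% of all tested genes downwards and 5.64% upwards. Fewer rises were called when single mice were left out: 190 without LKO replicate 4, 166 without LWT replicate 3 and 169 without LWT replicate 4. The same fits called 555, 526 and 560 falls. Each of these fits had a mouse fewer, and dependence on a particular mouse was not tested. The rises made up 29.9% of the calls here, 40.0% after background correction with quantile normalization (405 higher, 608 lower), 40.5% with the percentile taken over probes detected on all arrays (420 and 617) and 41.8% in the authors' value table (426 and 593).

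**Figure D1:**
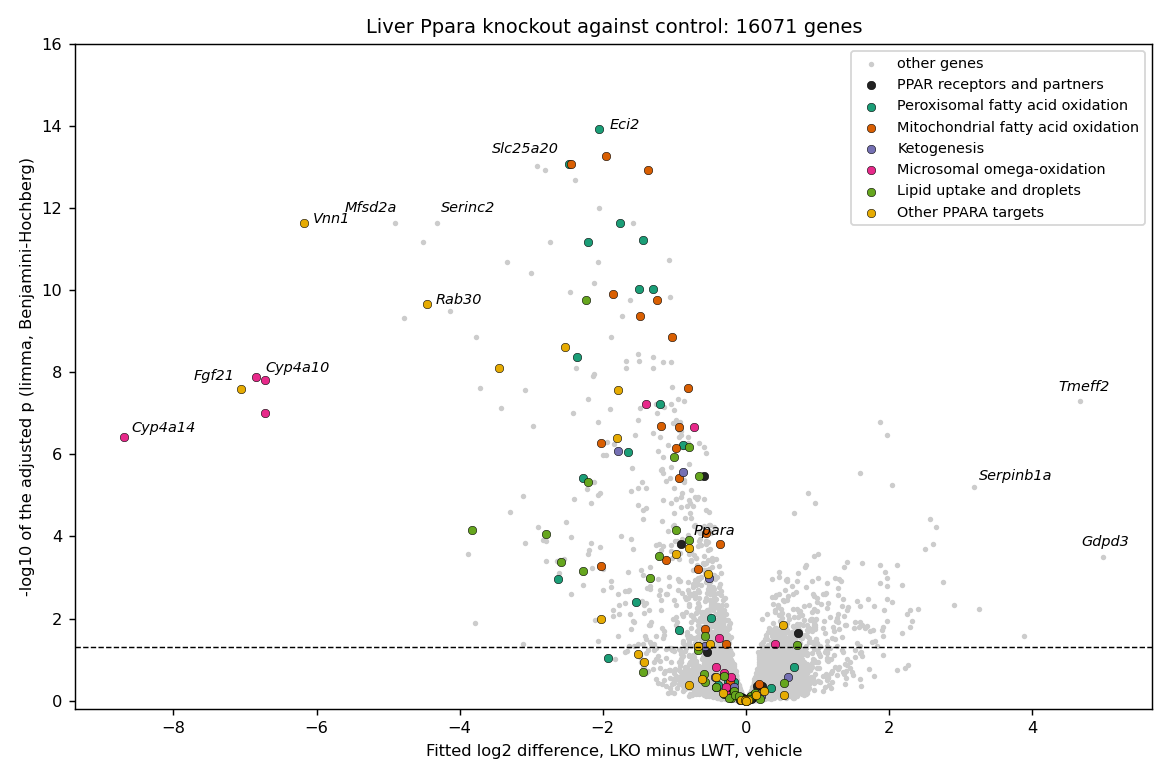
Each point is 1 of 16071 genes, with the fitted log2 difference of LKO minus LWT vehicle mice on the horizontal axis and -log10 of the limma adjusted p on the vertical axis; the dashed line marks 0.05 and colours mark 7 gene lists. Fatty acid genes fill the upper left, with Eci2 highest and Cyp4a14 farthest left at -8.69. Fitted values of genes below background in a group, such as Fgf21 and Tmeff2, are not bounds.

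Ppara itself fell, but its transcript was not lost. The LWT mice read 6.70, 7.06, 7.25 and 7.09 and the LKO mice 6.00, 6.21, 6.11 and 6.12. Every LKO value was below every LWT value, and the level fell by 0.91 ± 0.16 (limma adjusted p = 0.000156). The 3 Ppara probes above background lie on chromosome 15 (mm9 build, plus strand), at 85632110 to 85632169, 85637193 to 85637252 and 85632534 to 85632593. In that order they kept 53.0%, 47.3% and 55.0% of the LWT level. In whole-body KO mice the same probes kept 31.2%, 22.5% and 33.2% of the WT level, and the fall of the brightest probe differed between the lines by 0.76 (adjusted p = 0.0342). Where the probes lie relative to the deleted part is not known here, so these readings do not test whether working receptor was lost. Liver tissue is a mixture of cells, and fewer Ppara-expressing cells and less transcript per cell cannot be told apart in these samples.

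Among 21 receptors, partners and coregulators, 2 fell and 1 rose (14.3% called, against 6.08% over all genes). Their median difference was 0.00, against -0.01 over all genes. Creb3l3, a membrane-bound transcription factor of hepatocytes that acts with PPARA, fell by 0.59 ± 0.08 (adjusted p = 3.38e-06). Pparg, the adipogenic relative of Ppara, read 1.84, 1.50, 1.33 and 1.09 in LWT and 2.58, 2.29, 1.98 and 1.83 in LKO. The lowest LKO and the highest LWT value of Pparg overlapped, and the rise of 0.73 ± 0.20 (adjusted p = 0.0227) was lost on leaving out any of 4 mice (LKO replicate 1 or 2, LWT replicate 3 or 4), with adjusted p from 0.0709 to 0.114. The retinoid X receptors and the coactivator Ppargc1a were not called.

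A PPAR response element is written as a pair of AGGTCA half-sites with 1 base between them. Promoters in the RefSeq table (GRCm38.p6, 250 bases before to 50 after the start) matched 549 of the called lower genes and 227 of the called higher ones. This exact element, on either strand and with any base between the half-sites, stood in 0 promoters of both sets and in 0.0583% of the 12013 promoters of all tested genes. With up to 2 letters allowed to differ, a search added after the exact result was seen, 5.65% of the called lower genes (31), 3.52% of the called higher genes (8) and 3.94% of all tested genes (473) held a match. Among the 60 called lower genes of the 7 lists on PPAR and fatty acid handling with a promoter here, 7 (11.7%) did. A pattern with AGGNCA as both half-sites, which takes in every exact match, was found in Fabp1 alone of those genes. The 250 bases before the start are shown for the 4 genes whose match lies before it and has the fewest differing letters, then the lowest adjusted p, with the match in capitals. They are Fabp1 (chr6:71199629-71199878, plus strand), Acot12 (chr13:91741271-91741520, plus), Creb3l3 (chr10:81092592-81092841, minus) and Etfa (chr9:55512244-55512493, minus).
Fabp1: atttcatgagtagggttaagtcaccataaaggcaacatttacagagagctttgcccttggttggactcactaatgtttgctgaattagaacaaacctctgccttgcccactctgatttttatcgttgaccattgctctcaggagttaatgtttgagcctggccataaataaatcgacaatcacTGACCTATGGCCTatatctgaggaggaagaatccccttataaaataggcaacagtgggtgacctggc
Acot12: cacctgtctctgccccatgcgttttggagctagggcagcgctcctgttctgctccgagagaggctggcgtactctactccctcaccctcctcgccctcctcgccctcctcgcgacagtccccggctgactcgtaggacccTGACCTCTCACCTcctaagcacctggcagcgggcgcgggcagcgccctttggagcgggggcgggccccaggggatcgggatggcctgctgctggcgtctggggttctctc
Creb3l3: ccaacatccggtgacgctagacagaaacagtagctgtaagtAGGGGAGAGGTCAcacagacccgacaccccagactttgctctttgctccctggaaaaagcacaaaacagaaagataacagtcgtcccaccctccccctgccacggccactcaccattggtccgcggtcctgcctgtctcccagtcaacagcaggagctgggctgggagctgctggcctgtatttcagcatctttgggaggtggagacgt
Etfa: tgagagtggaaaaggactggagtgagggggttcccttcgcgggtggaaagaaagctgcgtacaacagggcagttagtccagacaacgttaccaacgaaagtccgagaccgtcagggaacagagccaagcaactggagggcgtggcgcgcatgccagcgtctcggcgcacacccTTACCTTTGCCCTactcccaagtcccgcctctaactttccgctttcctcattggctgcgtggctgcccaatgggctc
The match begins 67 bases before the start in Fabp1 and 110 in Acot12, each with 1 letter differing, and 209 in Creb3l3 and 77 in Etfa, each with 2. It lies on the gene's own strand in Creb3l3 and on the opposite strand in the other three. A match is a run of letters and not a measured binding site. Fabp1 encodes the abundant fatty acid carrier of the hepatocyte cytosol and fell by 0.79 ± 0.13 (adjusted p = 0.00012). Acot12, an acetyl-CoA thioesterase, fell by 0.49 (adjusted p = 0.00992), and Etfa, a subunit of the electron transfer flavoprotein, by 0.36 (adjusted p = 0.000156).

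Among genes above background on all 8 arrays, microsomal omega-oxidation held the largest fitted falls. Cyp4a10, Cyp4a14, Cyp4a31 and Cyp4a32 encode cytochromes P450 that hydroxylate the far end of fatty acids. Cyp4a14 read 7.33, 7.82, 8.31 and 9.20 in the LWT mice and -1.89, -0.47, -0.49 and 0.76 in the LKO mice. The groups lay far apart and every LKO array was still above background, for a 412-fold fall (-8.69 ± 1.02, adjusted p = 3.87e-07). Cyp4a10 read 8.53, 9.07, 9.02 and 9.46 against 1.87, 1.90, 2.17 and 2.77. This was a 114-fold fall (-6.84 ± 0.67, adjusted p = 1.30e-08) with no overlap.

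Cyp4a10, Cyp4a31 and Cyp4a32 of chromosome 4 are close copies, and cross-hybridization limits how far they can be told apart. Whether the Cyp4a14 probe also reads other Cyp4a genes was not tested. A Cyp4a10 probe (chr4:115198463-115198522, mm9) and a Cyp4a31 probe (chr4:115243923-115243982) cover the same stretch and differ at 6 of 60 bases, shown in capitals because they are all that separates the 2 readings.
Cyp4a10: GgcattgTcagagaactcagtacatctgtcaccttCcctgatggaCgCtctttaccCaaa
Cyp4a31: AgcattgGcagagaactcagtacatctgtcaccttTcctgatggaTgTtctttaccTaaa
The Cyp4a10 probe fell by 5.95 ± 0.56 and the Cyp4a31 probe by 4.34 ± 0.40, each with every LKO array above background and below every LWT array. At its brightest probe Cyp4a31 fell by 6.72 ± 0.66, and Cyp4a32 by 6.72 ± 0.73. They are therefore uncertain as separate genes.

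Of the 17 measured genes of omega-oxidation 7 fell and 1 rose (47.1% called, beside 6.08% over all genes), with a median of -0.30. Aldh3a2, the fatty aldehyde dehydrogenase, fell by 1.40 ± 0.15 (adjusted p = 5.87e-08) and Cyp4f15 by 0.73 ± 0.08 (adjusted p = 2.16e-07). The rise was Cyp4f14 (0.41, adjusted p = 0.0409). It was lost on leaving out any of 7 of the 8 mice in turn, the exception being LKO replicate 4.

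Peroxisomal beta-oxidation shortens very long and branched fatty acids. Of its 30 measured genes 18 fell and 0 rose (60% called, beside 6.08% over all genes), with a median of -1.07. Of the 18, Abcd2 was below background on all 8 arrays and its fall has no measured size. Eci2, an enoyl-CoA isomerase, had the lowest adjusted p of all genes. It read 6.98, 7.20, 7.27 and 7.19 in LWT and 5.02, 5.06, 5.14 and 5.23 in LKO. Within each group the values spanned a narrow range, and the fall was 4.14-fold (-2.05 ± 0.10, adjusted p = 1.16e-14). Its neighbour in function Decr2, the peroxisomal dienoyl-CoA reductase, fell 5.54-fold (-2.47 ± 0.13, adjusted p = 8.45e-14).

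Ehhadh, the bifunctional enzyme of the peroxisomal cycle, read 6.37, 5.82, 6.71 and 7.15 against 4.47, 4.01, 4.48 and 3.99. Its fall was 4.83-fold (-2.27 ± 0.30, adjusted p = 3.79e-06) with no overlap. Ech1 fell by 1.76 ± 0.11, Hsd17b4 by 1.44 ± 0.10, Eci3 by 2.20 ± 0.15 and the thiolase Acaa1b by 2.36.

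Among the acyl-CoA thioesterases Acot3 fell by 2.62 ± 0.52 (adjusted p = 0.00108). Acot4 fell by 0.94 ± 0.25 (adjusted p = 0.0191), a call that ended with the replicate number as a block (adjusted p = 0.0895) and without LKO replicate 1 or 4 or LWT replicate 4 (adjusted p from 0.0593 to 0.125). Acot1, the cytosolic member, read 6.11, 6.24, 6.89 and 7.65 in LWT and 4.69, 5.03, 5.71 and 5.79 in LKO. All 4 LKO mice of Acot1 were lower, but the difference of -1.42 ± 0.52 was not called (adjusted p = 0.118), and was with slide as a block (adjusted p = 0.0366). Acot1, Acot3 and Acot4 are neighbouring copies, so their readings may not be separate.

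Mitochondrial beta-oxidation gave the most even picture. Of 23 measured genes 20 fell and 0 rose (87% called, beside 6.08% over all genes), with a median of -0.97. They ran from carnitine uptake to electron transfer. Slc25a20, the carrier that brings acylcarnitine through the inner membrane, read 3.51, 3.72, 3.90 and 4.02 in LWT and 1.35, 1.41, 1.32 and 1.33 in LKO. The LKO mice of Slc25a20 had nearly the same value, and the fall was 5.41-fold (-2.44 ± 0.13, adjusted p = 8.45e-14).

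Etfdh, which passes electrons from acyl-CoA dehydrogenases to ubiquinone, read 6.19, 6.16, 6.35 and 6.43 against 4.37, 4.29, 4.31 and 4.35. Its fall was 3.87-fold (-1.95 ± 0.10, adjusted p = 5.45e-14), again with tight LKO values. Cpt2, the inner carnitine palmitoyltransferase, fell by 1.86 ± 0.15, the very long chain dehydrogenase Acadvl by 1.36 ± 0.08, the trifunctional subunit Hadhb by 1.24 ± 0.10 and the carnitine importer Slc22a5 by 2.03.

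Cpt1a, the regulated entry enzyme of liver mitochondria, moved little. It read 7.28, 7.27, 7.31 and 7.26 in LWT and 7.02, 7.19, 6.92 and 6.91 in LKO. The values did not overlap but LKO replicate 2 came close, and the fall was 1.20-fold (-0.27 ± 0.08, adjusted p = 0.0421). The call ended with the replicate number as a block (adjusted p = 0.228) and without any mouse but LKO replicate 2 (adjusted p from 0.0705 to 0.155). It also ended with the authors' values (0.227), normexp (0.213), quantile normalization (0.174) and the 8 arrays alone (0.11). So it did with another percentile (0.0745), no filter (0.0807) and the mean of probes (0.0845), but not with slide as a block. The other Cpt1a probe was not called (-0.29, adjusted p = 0.225).

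In ketone body synthesis 4 of 8 measured genes fell and 0 rose (median -0.47), a called share of 50% beside 6.08% over all genes. The thiolase Acat1 fell by 0.88 ± 0.11 (adjusted p = 2.70e-06). Slc16a7, a monocarboxylate carrier, fell by 0.57 ± 0.17 (adjusted p = 0.0475), a call lost on leaving out any mouse but LWT replicate 2 (adjusted p from 0.0552 to 0.222).

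**Figure D2:**
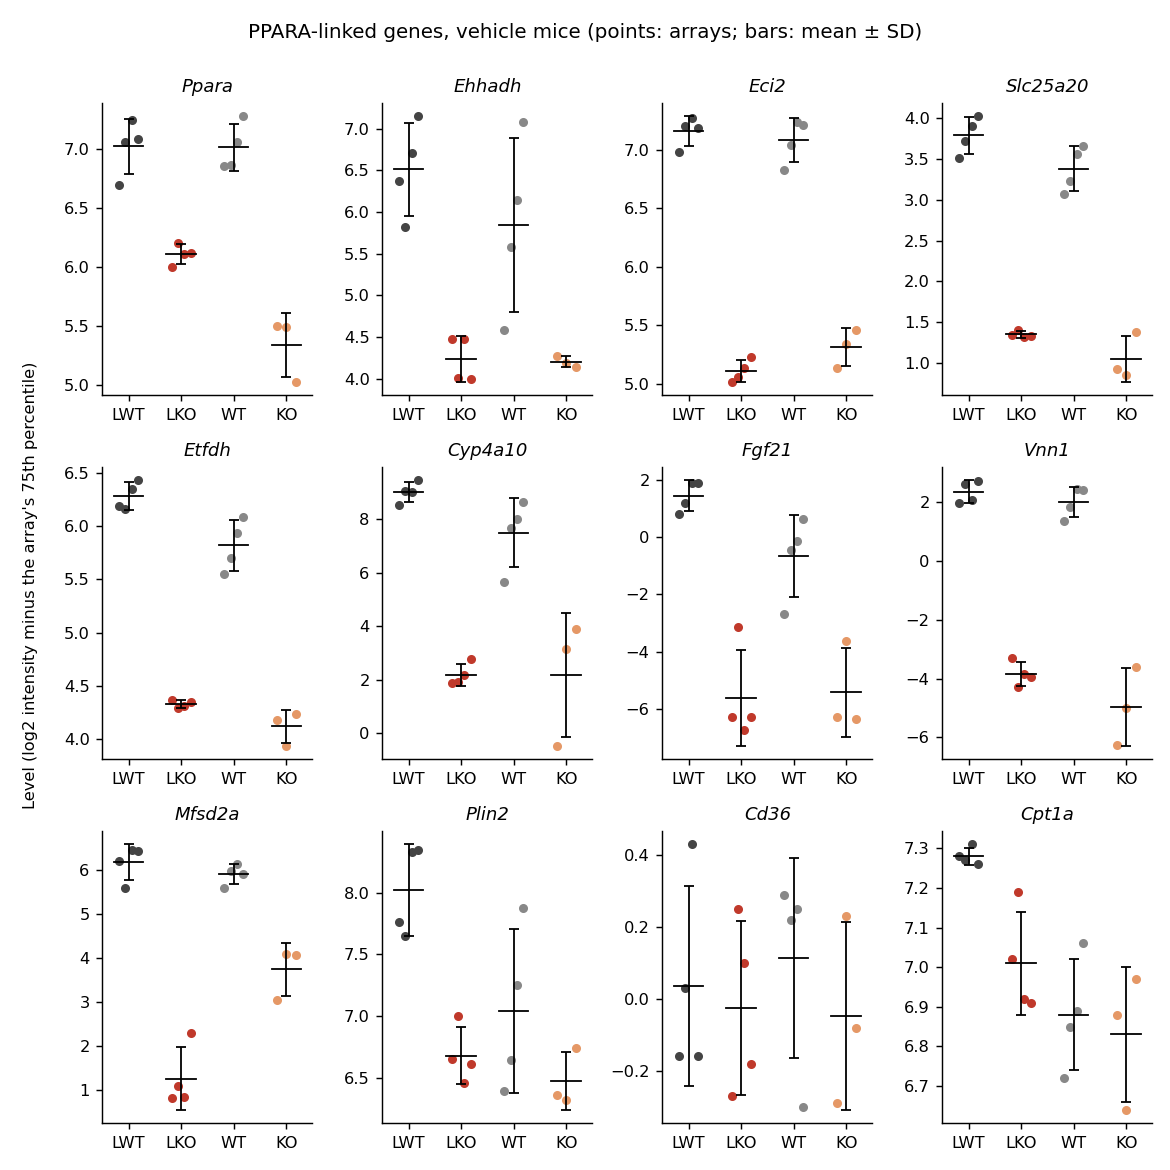
Levels of 12 genes in the vehicle mice of the 4 genotypes, as log2 intensity minus the 75th percentile of the array; points are arrays, horizontal lines means and bars SD (n = 4, 4, 4 and 3). LKO lies below LWT without overlap in 11 panels and overlaps it in Cd36. Each panel has its own scale, and the scale of Cpt1a spans less than 1 unit.

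Genes of lipid uptake and droplets fell in part. Of 34 measured members 14 fell and 1 rose (44.1% called, beside 6.08% over all genes), with a median of -0.57. Cidec, a droplet protein that enlarges droplets by fusion, read 2.75, 3.32, 4.18 and 4.37 in LWT and -0.15, 0.09, -0.29 and -0.30 in LKO. The LKO values of Cidec were close together and far below LWT, for a 14.1-fold fall (-3.82 ± 0.61, adjusted p = 6.96e-05). Plin2, the main coat protein of hepatocyte droplets, read 7.76, 7.65, 8.33 and 8.35 against 6.65, 7.0, 6.46 and 6.61. It fell 2.54-fold (-1.34 ± 0.26, adjusted p = 0.00103) with no overlap.

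Plin5, which ties droplets to mitochondria, fell by 2.58, Fitm2, needed to form droplets, by 2.24 ± 0.18, and G0s2, an inhibitor of adipose triglyceride lipase, by 2.20 ± 0.30. Angptl4, a secreted inhibitor of lipoprotein lipase, read 8.22, 8.19, 8.42 and 8.24 against 7.36, 7.44, 7.39 and 7.71. Its groups did not overlap, and the fall was 1.73-fold (-0.79 ± 0.10, adjusted p = 6.47e-07). The rise was Plin3 (0.71, adjusted p = 0.043), which was not called when any 1 of the 8 mice was left out, or with the replicate number as a block (adjusted p = 0.135). Cd36, the fatty acid translocase, read -0.16, 0.03, 0.43 and -0.16 against -0.27, 0.25, 0.10 and -0.18. The mice of both groups were mixed in order (-0.06 ± 0.18, adjusted p = 0.915). In the fenofibrate-treated mice the same genotypes differed in Cd36 by -3.99 (adjusted p = 1.08e-17).

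Among 28 other genes known as PPARA targets 13 fell and 1 rose (median -0.64), a called share of 50% beside 6.08% over all genes. Of the 13, Aqp3 was above background on 1 of the 8 arrays. Fgf21 read 0.81, 1.20, 1.88 and 1.88 in LWT and -6.28, -3.14, -6.75 and -6.30 in LKO. Only LKO replicate 2 was above background, so with values below background set at the lowest level called above it the fall of Fgf21 was at least 42.2-fold (fitted -7.06 ± 0.71, adjusted p = 2.61e-08). Vnn1, the pantetheinase that frees pantothenate, read 1.95, 2.62, 2.06 and 2.72 against -3.30, -4.27, -3.85 and -3.95. With 3 of 4 LKO arrays above background its fall was at least 70.6-fold (fitted -6.18 ± 0.40, adjusted p = 2.33e-12). Such bounds hold for this scaling only. For all 15 genes given one here, the fold was smaller than the bound in the authors' value table (1.73 to 25.5) and with normexp background correction and quantile normalization (1.52 to 17.8); the fitted log2 differences there were -4.32 and -3.62 for Fgf21 and -4.67 and -4.15 for Vnn1.

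Retsat, the retinol saturase, fell 5.78-fold (-2.53 ± 0.23, adjusted p = 2.40e-09), Rab30, a small GTPase, by 4.46 ± 0.36 on the log2 scale and Txnip, the thioredoxin-interacting protein, by 1.80. Krt23, a keratin that also stands in the list of bile duct markers, read 1.43, 1.90, 2.32 and 1.33 in LWT and -0.95, -2.49, -2.21 and -1.15 in LKO. It fell 10.9-fold (-3.45 ± 0.33) with no overlap. The rise was Ctsl, a lysosomal protease (0.52, adjusted p = 0.0143), which was not called with the replicate number as a block (adjusted p = 0.0925) or without LKO replicate 2 or LWT replicate 4 (adjusted p = 0.0858 and 0.0688). Pdk4, a kinase that restrains pyruvate oxidation, read 3.38, 2.03, 4.01 and 3.86 in LWT and 1.51, 1.52, 1.95 and 2.26 in LKO. LWT replicate 2 lay among the LKO mice and Pdk4 was not called (-1.51 ± 0.50, adjusted p = 0.0744); without that mouse the adjusted p was 0.0168, with slide as a block 0.0248 and with the authors' values 0.0382.

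Several of the largest falls belonged to none of these lists. Mfsd2a, a carrier of lysophospholipids, read 6.21, 5.59, 6.46 and 6.43 in LWT and 0.82, 1.1, 0.85 and 2.31 in LKO. The highest LKO value was still far below the lowest LWT value, for a 29.9-fold fall (-4.90 ± 0.32, adjusted p = 2.33e-12). Serinc2, a membrane protein, fell 19.8-fold (-4.31 ± 0.28) and Gpat3, a glycerol-3-phosphate acyltransferase, 14.7-fold (-3.88 ± 0.68, adjusted p = 0.000264). Mtnr1a, the melatonin receptor, read 0.45, 0.83, 0.48 and 0.58 against -3.85, -3.61, -4.11 and -4.14. With 2 of 4 LKO arrays above background it fell at least 22.7-fold (adjusted p = 6.79e-12).

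Rufy4 and Esrrg, an orphan nuclear receptor related to the estrogen receptors, were above background on all 4 LWT arrays and on 0 of 4 LKO arrays. They fell at least 6.20-fold (Rufy4, adjusted p = 4.63e-10) and at least 3.88-fold (Esrrg, adjusted p = 3.26e-10). Pbx4, a homeobox gene, read 0.98, -4.14, 1.82 and 0.86 in LWT and -4.37, -4.65, -3.83 and -2.81 in LKO. LWT replicate 2 of Pbx4 lay among the LKO mice, and the fall of at least 12.0-fold (adjusted p = 0.0131) was lost with the replicate number as a block (adjusted p = 0.0708) and without LWT replicate 1, 3 or 4 (adjusted p from 0.0526 to 0.0817). Rtn4, an endoplasmic reticulum protein, fell by 2.92 (adjusted p = 9.21e-14) and Lgals4, a galectin, by 3.00 (adjusted p = 3.85e-11); these were named after their values were seen.

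The largest rises were in genes with no common list. Gdpd3, a lysophospholipase D, read -4.22, -4.56, -3.19 and -3.59 in LWT, with 2 of 4 arrays above background, and 0.91, 1.24, 0.95 and 1.34 in LKO. The groups lay far apart and the rise was at least 31.6-fold (fitted 5.00 ± 0.89, adjusted p = 0.000314). In the fenofibrate-treated mice the same genotypes differed in Gdpd3 by -3.06 (adjusted p = 0.00301), the opposite direction. Tmeff2, a transmembrane protein, was above background on 0 of 4 LWT arrays and all 4 LKO arrays and rose at least 8.20-fold (adjusted p = 5.12e-08).

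Serpinb1a, an inhibitor of neutrophil elastase, read -0.94, 0.41, -1.33 and -0.80 against 2.75, 1.82, 2.61 and 2.94. It rose 9.15-fold (3.19 ± 0.44, adjusted p = 6.25e-06) with no overlap. Blnk, an adaptor of B cell receptor signalling, rose 6.30-fold (2.66 ± 0.42), Lrtm1 5.69-fold (2.51 ± 0.43) and Slc13a5, the citrate carrier of the hepatocyte membrane, 4.89-fold (2.29 ± 0.60, adjusted p = 0.0159). The Slc13a5 call ended without LKO replicate 2, LWT replicate 3 or LWT replicate 4 (adjusted p from 0.0538 to 0.0887). Wif1, a secreted Wnt inhibitor above background on 2 of 4 LWT arrays, rose at least 5.66-fold (adjusted p = 3.83e-05). Of the other dim genes, Gldn, a gliomedin gene, rose at least 6.52-fold (3 of 4 LWT arrays above background), Tafa2 at least 5.36-fold (1 of 4), Tceal5 at least 3.12-fold (0 of 4) and Mirg, a noncoding RNA of an imprinted cluster, at least 4.22-fold (2 of 4). The Mirg call ended with the replicate number as a block (adjusted p = 0.0637), and Tafa2 and Tceal5 were not called in the authors' value table, where they were 2.75-fold and 1.78-fold higher (adjusted p = 0.0576 and 0.0506). With normexp Tafa2 and Mirg were not called (adjusted p = 0.0693 and 0.0536).

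Smpd3, a neutral sphingomyelinase, read 0.56, 0.38, -1.31 and -1.74 in LWT and 2.42, 1.76, 0.99 and 1.90 in LKO, without overlap (2.30 ± 0.54, adjusted p = 0.00626); it was not called with the 8 arrays alone (adjusted p = 0.0547). Orm3, an acute phase glycoprotein, rose 4.80-fold (2.26 ± 0.54, adjusted p = 0.00767). Ifi27l2b rose by 2.32 ± 0.58 (adjusted p = 0.0113) although LWT replicate 2, at 1.60, lay among LKO mice at 0.68 to 2.17, and the call ended without LWT replicate 3 or 4 (adjusted p = 0.0914 and 0.0514). Moxd1, a monooxygenase-like protein, read 3.59, 3.47, 3.48 and -3.37 in LWT and 5.80, 6.70, 5.05 and 5.17 in LKO. Without LWT replicate 4, the outlying mouse, the Moxd1 difference dropped from 3.89 ± 1.09 (adjusted p = 0.0266) to 2.17 (adjusted p = 0.174); it was also not called without LKO replicate 1 or 2 (adjusted p = 0.059 and 0.0921) or with the replicate number as a block (adjusted p = 0.0819).

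**Figure D3:**
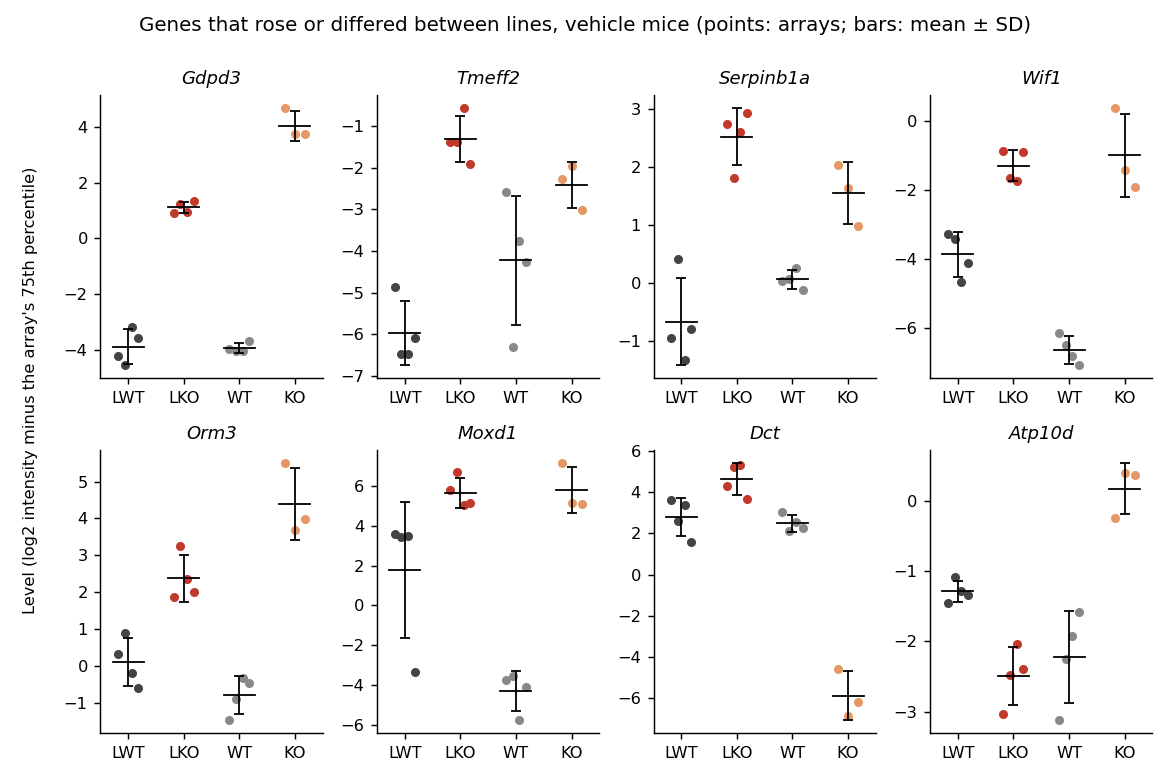
Levels of 8 genes in vehicle mice of the 4 genotypes, as log2 intensity minus the 75th percentile of the array; points are arrays, horizontal lines means and bars SD (n = 4, 4, 4 and 3). LKO lies above LWT in 7 panels and below it in Atp10d; in Moxd1 1 LWT mouse reads -3.37 beside 3 at 3.47 to 3.59. In Dct the KO mice are below background, while the LKO mice are above LWT.

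Synthesis and transport of lipids changed in a smaller share of genes than fatty acid oxidation. In fatty acid and triglyceride synthesis 6 of 33 measured genes fell and 1 rose (median -0.21). This was a called share of 21.2%, beside 6.08% over all genes. The desaturase Fads2 fell by 1.20 ± 0.14 (adjusted p = 3.74e-07), the mitochondrial acyltransferase Gpam by 1.40 ± 0.21 (adjusted p = 2.04e-05) and the elongase Elovl5 by 0.92 ± 0.18 (adjusted p = 0.00125). Mogat2, a monoacylglycerol acyltransferase, rose by 1.78 ± 0.48 (adjusted p = 0.0191), a call that ended with the replicate number as a block (adjusted p = 0.0689) and without any of 4 mice (LKO replicate 2 or 3, LWT replicate 3 or 4; adjusted p from 0.0737 to 0.0981). Fasn, Acaca and Scd1, the core of fatty acid synthesis, were not called. Srebf1, in the same list, was called lower. It read 0.74, 0.02, 0.11 and -0.46 in LWT and -0.73, -1.12, -0.89 and -1.42 in LKO, without overlap. How Srebf1 fared under the alternatives and between the lines is not given here.

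In cholesterol synthesis 1 of 24 genes fell and 0 rose, a called share of 4.17% beside 6.08% over all genes. The fall was Hsd17b7, which read 2.94, 2.72, 2.97 and 2.91 in LWT and 2.07, 1.72, 1.53 and 1.22 in LKO (-1.25 ± 0.21, adjusted p = 0.000158). In bile acid synthesis and transport 4 of 23 fell and 2 rose (26.1% called). The canalicular phospholipid exporter Abcb4 fell by 0.93 ± 0.11 (adjusted p = 2.62e-07), and the paired sterol exporters Abcg5 and Abcg8 by 0.71 ± 0.14 and 0.94 ± 0.16. The receptor Fgfr4 rose by 0.55 ± 0.12 (adjusted p = 0.00205) and the organic anion carrier Slco1a4 by 1.12 ± 0.24 (adjusted p = 0.00235). Cyp7a1, the rate-limiting enzyme of bile acid synthesis, ran from 1.64 to 3.74 in LWT and from 2.31 to 5.10 in LKO, overlapping throughout (0.67 ± 0.79, adjusted p = 0.749).

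Of 18 genes of glucose handling 2 fell: Gys2, the liver glycogen synthase (-0.93 ± 0.17, adjusted p = 0.000352), and Pfkfb1 (-0.85 ± 0.13, adjusted p = 3.53e-05). Of 23 hepatokine genes 2 fell and 1 rose. The growth factor binding protein Igfbp2 fell by 1.45 ± 0.20 (adjusted p = 4.80e-06). The fall of the activin subunit gene Inhbe (-0.90 ± 0.25, adjusted p = 0.0219) and the rise of the fetuin gene Fetub (0.41 ± 0.12, adjusted p = 0.0349) ended with the replicate number as a block (adjusted p = 0.129 and 0.152), and so did the 1 call among 19 apolipoprotein genes, the phospholipid transfer protein Pltp (-0.88 ± 0.26, adjusted p = 0.0351, with the block 0.153). Each of the 3 calls was also lost on leaving out single mice, with adjusted p from 0.0799 to 0.0997 for Inhbe (LKO replicate 1 or 4, LWT replicate 3 or 4), 0.106 to 0.152 for Fetub (LKO replicate 2 or 4, LWT replicate 1 or 4) and 0.0632 to 0.152 for Pltp (all but LKO replicates 1 and 3 and LWT replicate 2). In the respiratory chain 3 of 26 genes fell (median -0.17), the largest being cytochrome c, Cycs (-0.59 ± 0.11, adjusted p = 0.000458). Called shares were 11.1% for glucose handling, 13% for hepatokines, 5.26% for apolipoproteins and 11.5% for the respiratory chain, beside 6.08% over all genes.

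Of 32 genes of amino acid catabolism 1 rose, Prodh, and of 29 acute phase genes 1 rose, Orm3. These were 3.12% and 3.45% of their lists, beside 6.08% called over all genes. The clock and ATF4 lists that follow held 5.56% and 3.85%. Of 18 clock genes 1 fell, Nr1d1 (-1.28 ± 0.38, adjusted p = 0.0418), a call that was lost with slide as a block (adjusted p = 0.0605) and on leaving out any of 7 mice (adjusted p from 0.0623 to 0.125). Of 26 genes of the ATF4 and endoplasmic reticulum stress list 1 fell, Psat1, at least 3.33-fold. No gene was called at an adjusted p under 0.05 by limma among 30 xenobiotic, 19 antioxidant, 17 male-biased and 21 cell cycle genes. Of 14 female-biased genes 3 fell (21.4%), all of which also stand in the peroxisomal list (Abcd2, Acot3 and Acot4).

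**Figure D4:**
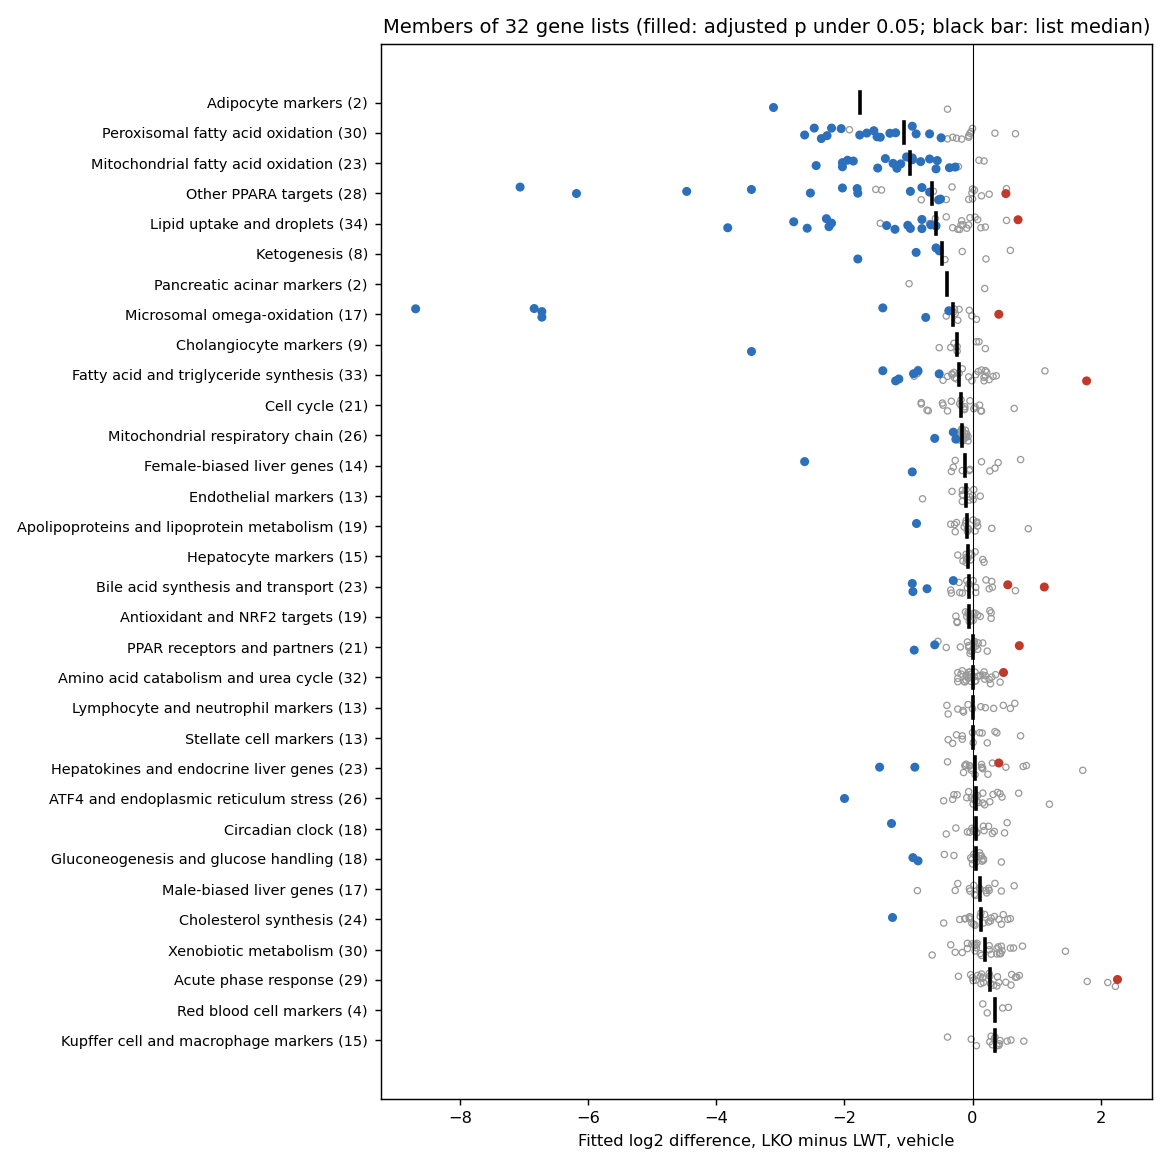
Fitted log2 differences of LKO minus LWT vehicle mice for the measured members of 32 gene lists, with list sizes in parentheses and Abcd2, below background in both groups, left out of the points. Filled points passed an adjusted p under 0.05 (blue lower, red higher), open points did not, and black bars are list medians. The lists of peroxisomal and mitochondrial oxidation sit at -1.07 and -0.97.

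Few markers of the cells that liver holds were called. Of 86 measured genes in 9 marker lists 2 were called, Krt23 among bile duct markers and Cfd among adipocyte markers. Over all genes 6.08% were called. All 15 hepatocyte markers were measured and none was called, with differences from -0.23 to 0.18. The summed level of those markers, as log2, ran from 13.44 to 13.82 in LWT and 13.51 to 13.74 in LKO. The 15 macrophage markers had a median of 0.35 and summed levels of 6.75 to 7.55 in LWT and 7.43 to 7.69 in LKO, with none called. Of the 9 bile duct markers 8 were not called, Krt19 and Epcam among them, and the summed level ran from 2.64 to 3.31 in LWT and 1.25 to 2.40 in LKO. Without Krt23 the sums of the other 8 overlapped, at 1.81 to 2.64 in LWT and 1.11 to 2.27 in LKO. Cfd, the adipocyte protease adipsin, read -1.44, -1.36, 0.17 and -2.27 in LWT and -4.70, -4.83, -1.45 and -6.40 in LKO. It was above background on 4 and 1 arrays and fell at least 4.61-fold (adjusted p = 0.0412). The Cfd call was lost on leaving out any of 6 mice, all but LKO replicate 3 and LWT replicate 4 (adjusted p from 0.0676 to 0.198). Retn, the other measured adipocyte marker, did not pass the test. The 2 adipocyte markers had a median of -1.76, with overlapping sums of -1.58 to 0.29 in LWT and -4.11 to -0.97 in LKO. What other cells add to these results was not tested.

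The same 16071 genes were set beside whole-body knockout against wild-type in vehicle mice, where 29.9% were called (13.9% higher and 16% lower). Of the 685 genes lower in LKO, 466 were also lower in KO (68.0% of the former and 18.1% of the 2579 lower in KO), and 12 were higher. Of the 292 genes higher in LKO, 139 were also higher in KO (47.6%, and 6.22% of 2233) and 21 were lower. A test of the difference between the lines called 8.26% of all genes (4.39% higher and 3.86% lower), and among the LKO calls 100 of the falls and 58 of the rises.

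Mfsd2a fell further in the liver knockout than in the whole body knockout (-4.90 and -2.16, difference -2.75, adjusted p = 0.000181). So did Gpat3 (-3.88 and -0.10, adjusted p = 0.0164), Cidec (-3.82 and -0.73, adjusted p = 0.0297) and Rab30 (-4.46 and -2.78, adjusted p = 0.0436). In WT mice Cidec read -0.52, 0.60, 1.22 and 2.60, below all LWT mice, so the 2 control groups were not at the same level. Ech1 fell less in the liver knockout (-1.76 and -2.46, difference 0.70, adjusted p = 0.00728). Hsd17b7 fell in LKO and had 0.20 ± 0.23 in KO (difference -1.45, adjusted p = 0.00267); its WT mice, at 1.98 to 2.31, were also below the LWT mice.

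Some genes moved in opposite directions in the 2 lines, and these were named after their values were seen. Dct, an enzyme of melanin synthesis, read 3.63, 2.58, 3.37 and 1.57 in LWT and 4.30, 5.22, 5.30 and 3.66 in LKO (1.83 ± 0.56, adjusted p = 0.0479). That call was lost on leaving out any of 6 mice (all but LKO replicate 4 and LWT replicate 1), with adjusted p from 0.0554 to 0.22, and in the authors' value table (adjusted p = 0.187). In WT it read 3.05, 2.10, 2.55 and 2.27 and in KO it was above background on 0 of 3 arrays. Atp10d, a phospholipid flippase, read -1.45, -1.09, -1.28 and -1.34 in LWT and -3.04, -2.48, -2.04 and -2.40 in LKO, lower in all 4 LKO mice (-1.20 ± 0.25, adjusted p = 0.00206). It was higher in KO than in WT by 2.39 (adjusted p = 9.31e-08). Slc13a2, a dicarboxylate carrier, rose by 1.98 ± 0.23 in LKO and fell by 1.04 in KO, and Robo1, a guidance receptor, rose by 1.33 ± 0.26 and fell by 2.07.

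**Figure D5:**
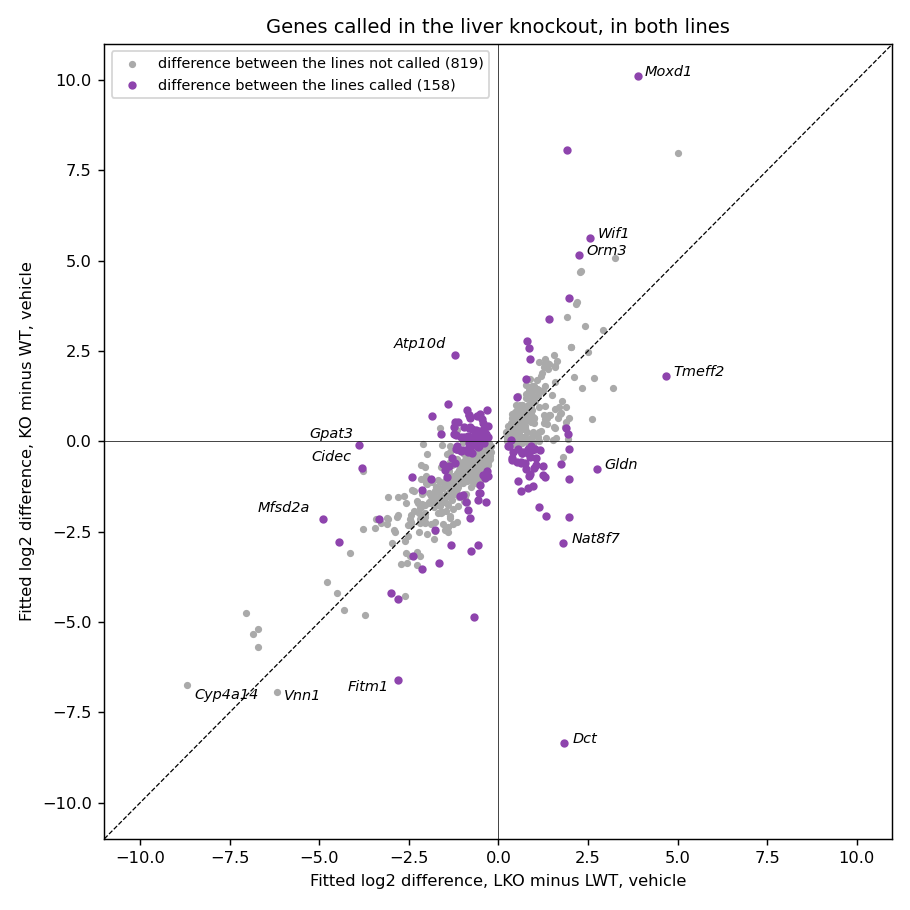
The 977 genes called in LKO minus LWT vehicle mice, with that fitted log2 difference on the horizontal axis and KO minus WT on the vertical axis; purple marks the 158 genes whose difference between the lines was called, and the dashed line is equality. Most points lie in the lower left and upper right, while Dct, Atp10d and Nat8f7 lie in the other quadrants.

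In fenofibrate-treated mice, other animals of the same 2 genotypes, 36.4% of all genes were called (18.2% higher and 18.1% lower). Of the 685 falls 650 (94.9%) were called lower there and 0 higher, and of the 292 rises 239 (81.8%) were called higher and 2 lower. Ehhadh differed by -4.88 there against -2.27 in vehicle mice, and Plin2 by -2.77 against -1.34. Pdk4 and Acot1, not called in vehicle mice, differed there by -4.89 (adjusted p = 5.22e-10) and -2.97 (adjusted p = 7.35e-06). The change of these differences with the drug was not tested.

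The 8 arrays lay on 3 slides, each with both groups (1 LKO and 1 LWT, 2 and 1, 1 and 2). Within the slides 99.4% to 100% of the called falls and 100% of the called rises kept their direction, though the same arrays had entered the calls. Ppara differed by -0.70, -1.09 and -0.96 within slides, Ehhadh by -1.89, -2.46 and -2.50 and Cyp4a10 by -6.65, -6.99 and -6.49.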

How the data were processed

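Liver RNA of 34 mice was measured on 1-colour Agilent arrays, 1 array per mouse. Per the file headers, spot intensity was read and background-subtracted by the authors with Agilent Feature Extraction 10.10.1.1, with probes placed on mm9. The authors' deposited value table holds log2 values with equal quantiles in every column (median 7.63, 32446 probes), and limma is named in the submitters' processing notes. On each of the 8 arrays these values correlated at 0.9995 or more with the log2 mean spot intensity before background subtraction.

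Here, the log2 of each processed intensity was taken minus the array's 75th percentile. Outlier spots were set to missing, which left 34 values missing in the 8 arrays among the genes tested. A probe was kept if all arrays of some group, among 8, had it well above background (31053), and the brightest named each gene, with names from RefSeq tables (33172 of 55681 probes). A model over all 8 groups was fitted with limma 3.58.1 in R 4.3.3 (lmFit, eBayes), with Benjamini-Hochberg adjustment over 16071 genes. It was tested on simulated data: of genes changed by 0.5, 1 and 2 on the log2 scale, 49.3%, 91.0% and 97.0% were recovered, with 7 false among 165 calls. The simulated arrays had independent normal noise with each gene's own spread, and 200 of 15983 genes were changed. They held no outlying mice and no shared deviation of same-numbered mice, so these shares need not hold for the real arrays. A bound sets values below background at the lowest signal well above it on that array.

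The members, gene lists and tests were chosen with earlier results of these data known. Named genes were 16 well-known targets, the 15 largest rises and 15 largest falls called, and the 5 called genes of lowest adjusted p in each list (fewer where fewer were called); some of these are not reported here. Plin5, Plin3, Txnip, Ctsl, Acaa1b, Slc22a5, Cyp4f14, Srebf1, Rtn4, Lgals4, Robo1, Dct, Atp10d, Nat8f7, Slc13a2, Acpp, Fitm1 and genes given as not called were chosen after their values were seen. Same-numbered LKO and LWT mice deviated together (correlations of 0.292, 0.115, 0.119 and 0.262), though the labels do not say what the replicate number marks. In replicates 1, 3 and 4 the LKO and LWT mice also shared a slide, so number and slide cannot be told apart there. In replicate 2 they lay on different slides. The replicate number was used as a block only among the alternatives. The main fit, and every result given without a named alternative, was unpaired. Alternatives were the replicate number or slide as a block, the 8 arrays alone, normexp with offset 50 and quantile normalization, quantile normalization alone, another percentile, the authors' values, other filters, the mean of probes, outlier spots kept, and each mouse left out.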

Additional observations from a re-analysis of the deposited data

Results flagged for a closer look

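Among 210 pairs of a named gene and a vehicle group of 4, 9 (4.29%) held a mouse far from the other three by Dixon's criterion, which chance alone meets in about 1 of 20 groups. In the LWT mice these were Creb3l3 in replicate 1 (7.61, others 7.83 to 7.85), Pbx4 in replicate 2 (-4.14, others 0.86 to 1.82), Elovl5 in replicate 2 (5.78, others 6.51 to 6.63) and Moxd1 in replicate 4 (-3.37, others 3.47 to 3.59). In the LKO mice they were Slc22a5 in replicate 1 (0.29, others 0.72 to 0.77), Fgf21 in replicate 2 (-3.14, others -6.75 to -6.28), Gpat3 in replicate 2 (-0.41, others -1.59 to -1.40), Abcg5 in replicate 2 (4.16, others 4.49 to 4.53) and Esrrg in replicate 3 (-6.71, others -6.30 to -6.24, none above background).

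The effect of liver knockout differed from that of whole-body knockout, by limma's test of the difference over all genes, in 23 named genes. It was more negative in the liver knockout, or less positive, for Hsd17b4 (difference of log2 effects -0.45), Cyp4f15 (-0.40), Hsd17b7 (-1.45), Mfsd2a (-2.75), Rab30 (-1.68), Gpat3 (-3.78), Cidec (-3.09), Atp10d (-3.59), Moxd1 (-6.24), Wif1 (-3.06, with WT mice below background) and Orm3 (-2.91). It was less negative, or more positive, for Ppara (0.76), Ech1 (0.70), Fitm1 (3.82), Lgals4 (1.20), Cyp4f14 (0.69), Tmeff2 (2.86, with LWT mice below background), Gldn (3.52, with KO mice below background), Dct (10.19, likewise), Robo1 (3.40), Nat8f7 (4.61), Slc13a2 (3.02) and Acpp (4.06). Where a group was below background on every array the fitted difference has no measured size, and in KO mice Nat8f7 was above background on 2 of 3 arrays and Acpp and Fitm1 on 1. For Moxd1 and Wif1 the control groups stood further apart than the knockouts: Moxd1 averaged 5.68 in LKO and 5.82 in KO against 1.79 in LWT and -4.30 in WT, and Wif1 read 0.36, -1.43 and -1.93 in KO and averaged -1.30 in LKO, -3.86 in LWT and -6.62 in WT.

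Outside the named genes, 9553 probes without a gene name were above background. In LKO against LWT vehicle mice, 57 of them were called higher (0.597%) and 182 lower (1.91%).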

How the results depend on the processing

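The counts of LKO against LWT vehicle mice kept within 1.5 times of 292 higher and 685 lower, except the rises when 1 mouse was left out: the range over the 8 mice was 166 to 277 higher and 526 to 677 lower. With the replicate number as a block 250 were higher and 562 lower, with slide as a block 416 and 833, without the filter 229 and 575, and with the 8 arrays alone 260 and 594. The higher calls of the difference between the lines numbered 706, and 543 to 1185 when 1 of the 15 vehicle mice was left out, the latter without KO replicate 1. The named genes counted here were 104, without Ppara and without Abcd2, which was below background. Under all 19 alternatives 77 kept their side of the threshold and 27 did not. No gene called in the main fit or in the alternative turned direction. Where neither fit called a gene, as for Cd36, its direction was not followed. The replicate block ended 12 calls of these named genes, all given with the results except that of Cox7b (adjusted p = 0.0776). The fit of the 8 arrays alone ended 20 (adjusted p from 0.0525 to 0.206): Cpt1a, Moxd1, Tafa2, Mirg, Ifi27l2b, Smpd3, Pbx4, Pparg, Slc16a7, Mogat2, Pltp, Inhbe, Fetub, Acot4, Cox7b, Cfd, Meg3, Dct, Ctsl and Cyp4f14. Of the calls, 10 ended without the filter, 9 in the authors' values and 6 with normexp. With normexp the falls of Serinc2 (-3.16), Rab30 (-3.56) and Krt23 (-2.72) were also smaller. The cause of these changes was not tested. The median of all genes moved between -0.01 and 0.03 over the alternatives, and none of 37 further probes of named genes had the opposite sign. Of these 28 were called themselves and 9 were not, in Cpt1a, Mirg, Ifi27l2b, Slc13a5, Slc16a7, Mgll, Fgfr4 and Cycs; the further Tmeff2 probe rose by 2.28 (adjusted p = 0.0126). With 4 mice a group and 56 tested genes below background in both, small or dim changes can be missed: in the simulated data about 49.3% of changes of 0.5 were called.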

Other observations

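Some probes without a gene name changed as much as the named genes, and they were picked by size after their values were seen. A probe on chromosome 4 (115205300 to 115205359, mm9), among the Cyp4a genes, read 0.33, 0.21, 0.00 and -0.06 in LWT and was above background on 0 of 4 LKO arrays (limma adjusted p = 5.68e-11). A probe on chromosome 5 (106986805 to 106986864), in a region the array design labels as a long noncoding transcript, read 0.39, -0.06, 0.90 and 1.14 in LWT and -3.72, -3.87, -3.17 and -3.48 in LKO, a difference of -4.15 ± 0.37 (adjusted p = 2.48e-09). It was also lower in whole-body KO than in WT mice, by -3.14.

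Around Ppara itself, within 5 Mb, 131 genes were tested and 12 were called in LKO against LWT (9.16%), Ppara included, with 10 lower and 2 higher. The share was 4.42% over the 656 genes of chromosome 15 and 6.08% over all genes, and the difference was not tested. Among the lower ones was Cpt1b, the muscle form of the carnitine palmitoyltransferase.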
